A study of Mus musculus with 3 samples.

Results

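The genes described here encode the structural proteins of the extracellular matrix: the collagen chains, the laminin chains and a set of large matrix glycoproteins. They were chosen by symbol: every gene named as a collagen chain (Col, a number, a, a number), every gene named Lama, Lamb or Lamc with a number, and Fn1, Tnc, Sparc, Nid1, Nid2, Fbn1, Fbn2, Thbs1, Postn and Eln. The rule found 63 of the 22976 genes in the table of counts. Of these 63, 43 had enough reads to be tested and 20 did not.

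The clones were 2 libraries of NSC-34 cells that had become resistant to PR20 spontaneously and that the labels give as kept in 10 µM PR20 for 3 weeks. The control was 1 library of untreated, wild-type NSC-34 cells. NSC-34 is a mouse hybrid line of neuroblastoma and embryonic spinal cord cells enriched in motor neurons, and PR20 is a synthetic peptide of proline and arginine repeats, a dipeptide also made from the expanded C9ORF72 repeat. All 3 libraries came from cells grown on gelatin, which is itself denatured collagen, in medium with serum. No label states whether the clones grew as separate cultures, so the p-values reflect how far these libraries vary, possibly for technical reasons alone, and the control has no replicate. The libraries held 11389663 reads in clone 1, 11307034 in clone 2 and 11700755 in the control, so 1 read was worth 0.0891, 0.0899 and 0.0832 CPM. CPM here are counts scaled to library size with TMM factors.

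The labelled cell type was only partly visible in the markers. Of the motor neuron markers, Chat, the acetylcholine synthesis gene, had 0 reads in each clone and 7 in the control, and the summed level of the 6 listed genes was 5.79 and 4.85 CPM in the clones against 23.2 CPM in the control. Slc18a3, Isl1 and Isl2, the 3 tested motor neuron markers, were all lower in the clones. The 7 noradrenergic neuroblast markers summed to 831 and 752 CPM in the clones against 1259.6 CPM in the control. Of them 6, including Th, Dbh and Gata3, were lower. Slc18a3 and Dbh had enough reads to be tested only through the control, so both were bound to differ. Fibroblasts are a major source of fibrillar collagens. Their 8 markers summed to 61.6 and 69.9 CPM in the clones against 71.6 CPM in the control, of which 2 of 4 tested were lower and 1 was higher. Most of that sum came from Pdgfra, at 43.0 and 45.3 CPM in the clones and 51.7 CPM in the control, while Lum, Fap, Prrx1 and Twist1 had at most 4 reads in any library and Dcn was not called. The 5 Schwann cell markers summed to 26.4 and 26.97 CPM in the clones against 48.3 CPM in the control, with Erbb3 lower. The 5 endothelial markers summed to 15.7 and 17.7 CPM in the clones against 32.0 CPM in the control, with Kdr and Pecam1 lower, and the 4 macrophage markers to 1.60 and 1.53 CPM against 1.248 CPM, with Cd68 not called. Bulk RNA does not separate fewer cells of a type from less RNA per cell, and the part of any such cells in the changes was not tested.

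The matrix has layers that differ in composition. Basement membranes are sheets of laminin and collagen IV networks joined by nidogens, in which laminins assemble as trimers of an alpha, a beta and a gamma chain. Interstitial matrix is built on fibrillar collagens, decorated by FACIT collagens and collagen VI filaments, and crossed by fibrillin and elastin fibres. Fibronectin, SPARC, tenascin C, thrombospondin 1 and periostin bind cells, growth factors or collagen and are produced as tissues are remodelled. In neural tissue, laminins and fibronectin support neurite outgrowth.

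The clones carried more matrix mRNA than the control, and a small number of genes made up most of it. All 63 genes summed to 3589 and 3812 CPM in the clones, against 2098 CPM in the control. In raw reads this was 0.354% and 0.375% of all reads in the clones and 0.215% in the control. Sparc, Lamc1, Col18a1, Fn1, Lamb2 and Col6a5 held 89.1% and 88.7% of the reads of the group in the clones and 83.5% in the control. Each of these 6 genes rose. The sum therefore describes these 6 genes rather than collagens in general.

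Of the 43 tested genes, 16 rose and 10 fell by edgeR's quasi-likelihood test at an adjusted p of 0.05, and 17 were not called. That is 37.2% higher and 23.3% lower, beside 24.3% higher and 25.8% lower among all 13705 genes tested. Since 50.1% of all tested genes were called in one direction or the other, a call by itself sets no gene apart. The median log2 fold change was 0.48 over the 43 genes and 0.0021 over all tested genes. Changes of at least 2-fold were called for 7 of the 43 genes upward and 5 of the 43 downward, beside 2.23% and 9.35% of all genes. Of the 7, Col11a1, Col5a1, Col5a2 and Col9a3 averaged under 5 CPM. They lost their calls with the alternative tests DESeq2 and limma-voom, and the others kept theirs. Of the 5 downward, Lamb3 lost its call with both, and Col24a1 and Eln with DESeq2 only. Among the 11 genes that averaged 20 CPM or more, 9 rose and 2 fell. Calls depend on level, and the share called among all genes of like level was not computed. Among the 22 under 5 CPM, 5 were called higher, 5 lower and 12 were not called, with a median standard error of 0.42 on the log2 scale, against 0.066 for the 11 abundant genes. A gene that passed the low-count filter only through the library in which it is high was bound to differ, so these counts describe the tested genes and not all 63.

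The authors' deposited table, made with DESeq2 from the same libraries, gives an adjusted p under 0.05 to 11 of the 42 genes of the group that have one there. Of these, 8 were higher and 3 lower, beside 10.0% higher and 9.77% lower over all genes with an adjusted p in that table. The 8 include Sparc, Fn1, Lamb2, Lama5, Lamc1, Col18a1 and Col6a5, and the 3 are Fbn1, Col5a3 and Col15a1. The other 15 genes called by edgeR were not called there. Among them are Col4a1, Col6a1, Col9a2, Col16a1 and Col17a1, with DESeq2 adjusted p from 0.173 to 0.374. Without the low-count filter, edgeR made 0 calls in the group, with 23 genes at an unadjusted p under 0.05, and 4 calls over all genes.

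**Figure D1:**
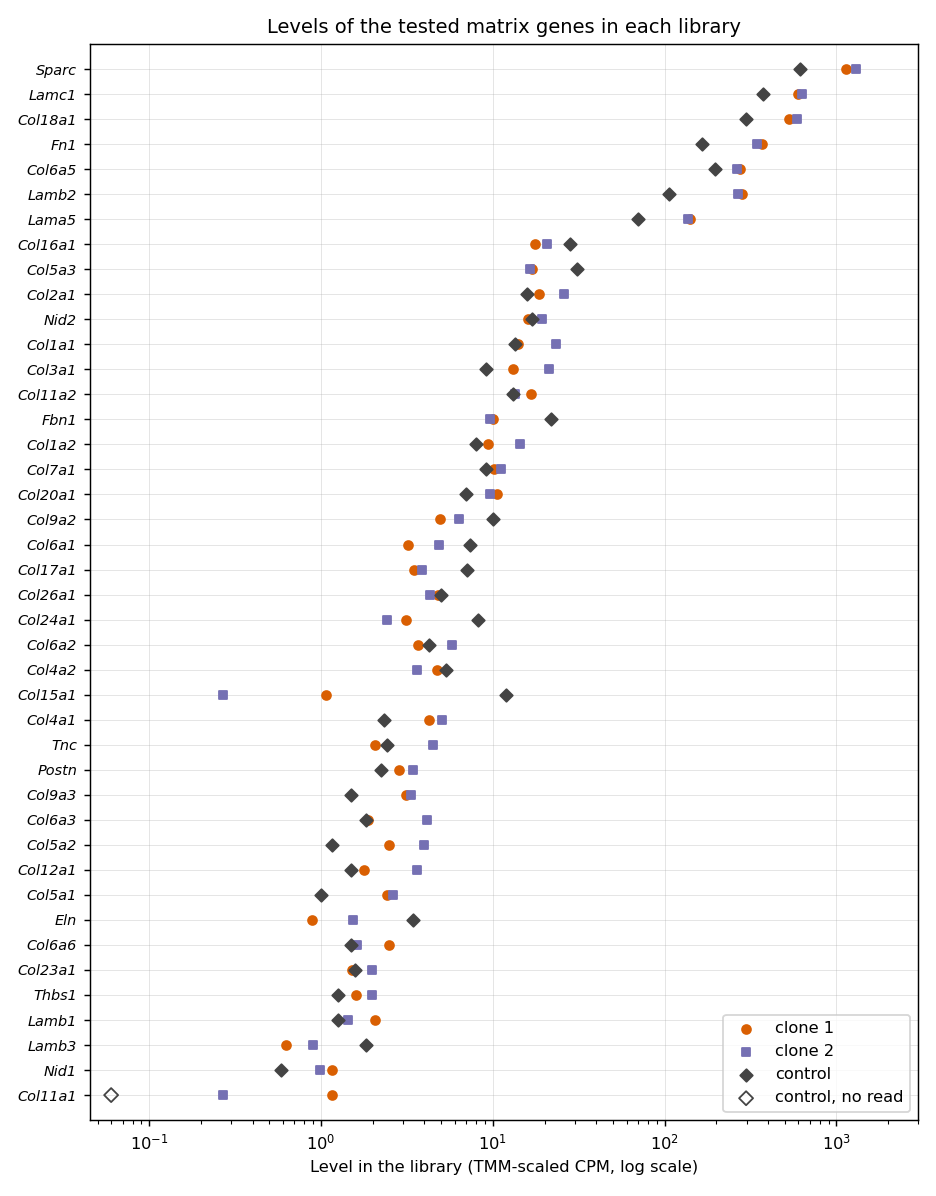
Level of 42 of the tested genes in clone 1, clone 2 and the control, in TMM-scaled CPM on a log axis, 1 point per library, ordered by mean level. The 7 genes at the top lie to the right of the control in both clones, and Fbn1, Col5a3, Col16a1 and Col15a1 lie to its left, while Col11a1 had no read in the control and is drawn there as an open symbol at an arbitrary position.

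Among the laminin chain genes, Lama5, Lamb2 and Lamc1 rose, Lamb3 fell and Lamb1 was not called. Lama5, the alpha 5 chain gene, stood at 139.8 and 137 CPM in the clones against 69.5 CPM in the control (log2 fold change 0.99 ± 0.07 SE, edgeR adjusted p = 5.46e-09). Lamb2, the beta 2 chain gene, stood at 281 and 267 CPM in the clones against 107 CPM in the control (log2 fold change 1.36 ± 0.06, edgeR adjusted p = 4.74e-11). Lamc1, the gamma 1 chain gene, stood at 601 and 626 CPM in the clones against 375 CPM in the control (log2 fold change 0.71 ± 0.05, edgeR adjusted p = 1.82e-08). Together these 3 chains can form one trimer, known from mature basement membranes, including those of muscle synapses. In each of these 3 genes both clones lay above the control, and the clones differed from each other by less than either did from the control.

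Other alpha and beta chains were close to absent. Per kilobase of exon, Lama5 made up 99.7% and 99.6% of the alpha chain level in the clones and 98.8% in the control. Lamb2 made up 99.4% of the beta chain level in each clone and 97.8% in the control. Lamb3, a chain gene of epithelial laminin, fell, with 7 and 10 reads in the clones and 22 in the control (log2 fold change -1.26 ± 0.47, edgeR adjusted p = 0.037). That call did not hold with limma-voom (adjusted p = 0.0753) or with the legacy quasi-likelihood fit (adjusted p = 0.0560). Lamb1, whose product takes the place of the beta 2 chain in embryonic laminins, had 23 and 16 reads in the clones and 15 in the control and was not called (edgeR adjusted p = 0.401). Lama1, Lama2, Lama3, Lama4 and Lamc3 had at most 6 reads in any library and were not tested.

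The 3 rising partner chains did not keep their proportions. Per kilobase, the level of Lamc1 over that of Lamb2 was 1.57 and 1.73 in the clones, with 95% counting intervals of 1.51 to 1.64 and 1.65 to 1.80, against 2.59 in the control (2.43 to 2.76). Lamc1 over Lama5 was 5.91 and 6.30 in the clones (5.60 to 6.25 and 5.96 to 6.67) against 7.43 in the control (6.90 to 8.01). Lamb2 over Lama5 was 3.76 and 3.65 in the clones (3.54 to 4.0 and 3.43 to 3.89) against 2.87 in the control (2.63 to 3.14). The intervals of the clones lie apart from that of the control for all 3 ratios. These exact binomial intervals cover counting error only.

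**Figure D2:**
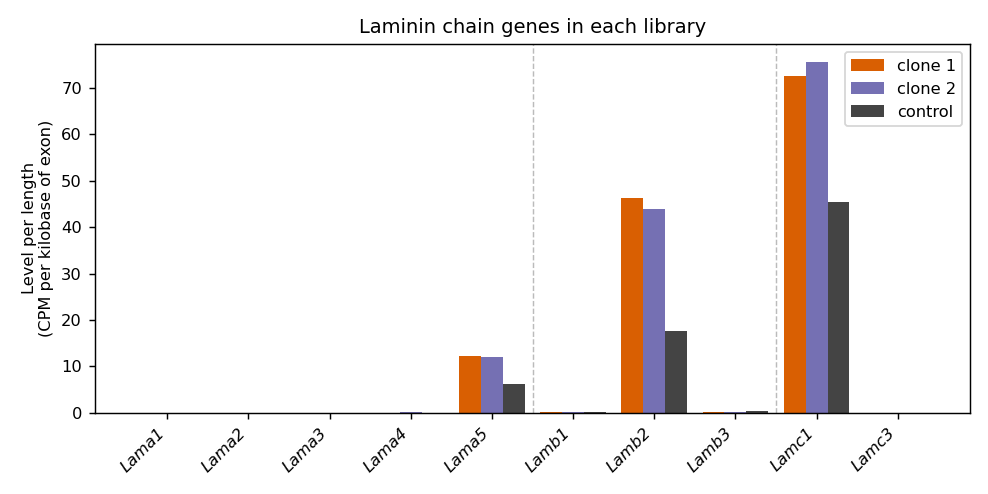
Levels of 10 laminin chain genes in CPM per kilobase of exon, with 1 bar each for clone 1, clone 2 and the control, and dashed lines between alpha, beta and gamma chains. Lama5, Lamb2 and Lamc1 are the visible genes and are higher in both clones, and the other 7 are near 0.

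The stretches before the starts of 4 genes are shown because the 2 laminin partners, the most abundant gene (Sparc) and a collagen gene that fell (Col5a3) differ in them. Each line gives the 250 bases before the RefSeq start on the gene's own strand, in GRCm38.p6, with GC boxes (GGGCGG on either strand) in capitals. Lama5 lies at chr2:180225860-180226109 on the minus strand, Lamb2 at chr9:108479612-108479861 on the plus strand, Sparc at chr11:55420081-55420330 on the minus strand and Col5a3 at chr9:20815068-20815317 on the minus strand.
Lama5: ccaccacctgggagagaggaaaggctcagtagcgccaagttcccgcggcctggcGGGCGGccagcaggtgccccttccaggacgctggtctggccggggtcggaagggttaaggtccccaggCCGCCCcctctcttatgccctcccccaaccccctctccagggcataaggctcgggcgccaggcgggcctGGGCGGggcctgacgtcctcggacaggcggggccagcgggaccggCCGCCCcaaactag
Lamb2: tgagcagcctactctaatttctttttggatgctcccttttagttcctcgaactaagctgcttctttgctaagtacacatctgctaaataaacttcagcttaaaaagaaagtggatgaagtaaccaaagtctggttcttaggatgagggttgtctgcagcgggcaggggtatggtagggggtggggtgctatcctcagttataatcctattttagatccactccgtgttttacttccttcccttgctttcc
Sparc: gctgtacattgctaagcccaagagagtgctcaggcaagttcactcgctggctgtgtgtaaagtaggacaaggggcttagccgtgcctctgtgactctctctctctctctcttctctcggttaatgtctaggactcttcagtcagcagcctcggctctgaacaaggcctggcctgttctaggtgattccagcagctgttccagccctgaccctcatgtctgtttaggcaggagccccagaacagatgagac
Col5a3: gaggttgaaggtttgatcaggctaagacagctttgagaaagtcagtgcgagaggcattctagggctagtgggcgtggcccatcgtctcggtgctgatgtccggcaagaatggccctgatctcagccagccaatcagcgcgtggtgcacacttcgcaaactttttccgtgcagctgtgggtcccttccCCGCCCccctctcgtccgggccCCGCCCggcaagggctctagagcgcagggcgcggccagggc
Lama5 holds 4 GC boxes and 72.4% G and C, whereas Lamb2, which rose by more, holds 0 and 43.6%. Sparc holds 0 and Col5a3 holds 2. RefSeq places the Sparc and Lamb2 starts inside the genes as Gencode draws them. The whole Sparc window and part of the Lamb2 window therefore lie within the Gencode gene. Over 32851 such windows of all genes, 32.7% hold at least 1 GC box. Of the group, 43 genes had a window, among them 10 of the 16 that rose and 9 of the 10 that fell. A GC box stood in 5 of those 10 and 4 of those 9. A gene of the group counted if any of its windows held the motif, whereas the shares over all genes count each window. The TATA box TATAAA stood in 1 of 10 and 1 of 9, beside 12.4% of all windows. The AP-1 motif TGANTCA stood in 0 of 10 and 1 of 9, beside 6.75%, and the E-box CACGTG in 0 of 10 and 0 of 9, beside 6.02%. All motifs were searched on both strands, and none of the 4 contains another. These matches describe letters and do not show binding.

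Of the 5 adhesive and matricellular glycoproteins, Sparc and Fn1 rose and Tnc, Thbs1 and Postn were not called. Sparc, whose product binds collagen and modulates cell adhesion, was the most abundant gene of the group at 1139.8 and 1296 CPM in the clones against 615 CPM in the control (log2 fold change 0.99 ± 0.07, edgeR adjusted p = 5.21e-09). It also led per length, at 301 and 342 CPM per kilobase in the clones against 162 CPM per kilobase in the control. Fn1, the fibronectin gene, was at 370.4 and 343 CPM in the clones against 164 CPM in the control (log2 fold change 1.12 ± 0.06, edgeR adjusted p = 4.27e-10). The 3 remaining glycoproteins were low. Tnc, the tenascin C gene, had 23 and 50 reads in the clones and 29 in the control, so the control lay between the clones (edgeR adjusted p = 0.406). Thbs1, the thrombospondin 1 gene, had 18 and 22 reads in the clones and 15 in the control (edgeR adjusted p = 0.352). Postn, the periostin gene, had 32 and 38 reads in the clones and 27 in the control (edgeR adjusted p = 0.267).

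Neither of the nidogens, which bridge laminin and collagen IV networks, was called. Nid2 was at 16.1 and 19.4 CPM in the clones and 17.0 CPM in the control (log2 fold change 0.07 ± 0.15, edgeR adjusted p = 0.741). Nid1 had 13 and 11 reads in the clones and 7 in the control (log2 fold change 0.87 ± 0.58, edgeR adjusted p = 0.228). The Nid2 exons overlap those of Rtraf on the opposite strand over 8.45% of their length, and Rtraf had 945 and 999 reads in the clones and 1503 in the control.

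Collagen IV, the network collagen of basement membranes, was low in all 3 libraries. Col4a1 had 48 and 56 reads in the clones and 28 in the control and was called higher (log2 fold change 0.99 ± 0.32, edgeR adjusted p = 0.0158). Col4a2 had 53 and 40 reads in the clones and 64 in the control and was not called (log2 fold change -0.36 ± 0.27, edgeR adjusted p = 0.290). Their products join as a trimer, and the genes lie head to head on chromosome 8 with first exons that overlap by 22 bases in opposite directions. The overlap, chr8:11312805-11312826 in GRCm38.p6 on the plus strand with its GC box in capitals, is shown because both genes start from it.
Col4a1 and Col4a2 overlap: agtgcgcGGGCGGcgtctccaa
Per kilobase, Col4a1 over Col4a2 was 0.803 and 1.24 in the clones (95% counting intervals 0.532 to 1.21 and 0.813 to 1.91) against 0.388 in the control (0.240 to 0.614). The interval of clone 1 overlaps that of the control and that of clone 2 does not. Col4a3, Col4a5 and Col4a6 had at most 1 read in any library.

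The multiplexins Col18a1 and Col15a1, related basement membrane collagens whose C-terminal ends yield endostatin and an endostatin-like fragment, went in opposite directions. Col18a1 was at 529 and 587 CPM in the clones against 297 CPM in the control (log2 fold change 0.91 ± 0.06, edgeR adjusted p = 7.04e-09). Col15a1 had 12 and 3 reads in the clones and 143 in the control, or 1.07 and 0.270 CPM against 11.9 CPM. Its log2 fold change was -4.13 ± 0.32 (edgeR adjusted p = 2.9e-08), the largest fall of the group. The size depends on the clone, at -3.46 for clone 1 alone and -5.41 for clone 2 alone. Per kilobase, Col18a1 was the second most abundant gene of the group in each clone, at 75.4 and 83.6 CPM per kilobase against 42.3 CPM per kilobase in the control.

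**Figure D3:**
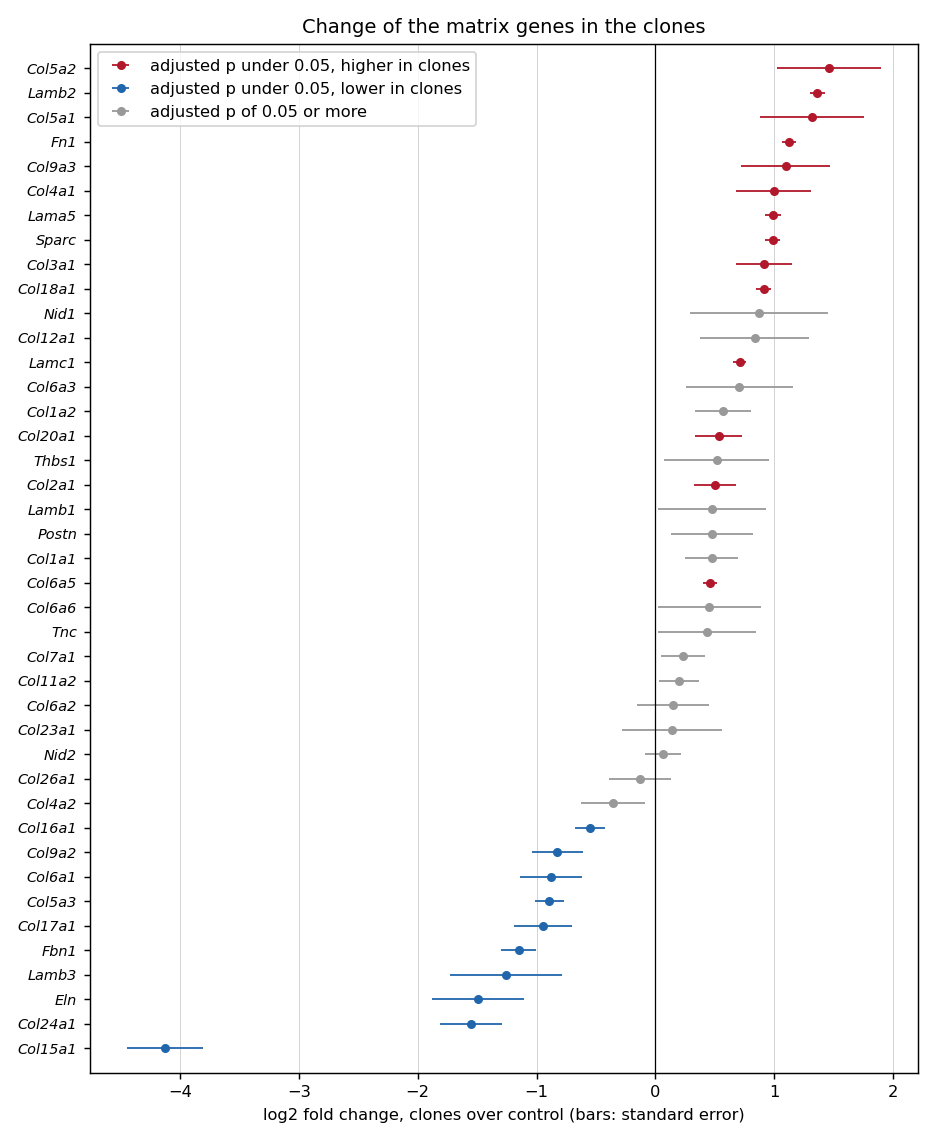
Log2 fold change of clones over control with its standard error from edgeR for 41 tested genes, coloured by call at an adjusted p of 0.05. Col5a2 and Lamb2 stand at the top and Col15a1 at the bottom with -4.13, and Col11a1 is left out because it had no read in the control.

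Fibrillar collagens, the chains of the rope-like fibrils, were at modest levels, with chains that moved in both directions. As a sum the 11 genes reached 97.9 and 124 CPM in the clones and 101 CPM in the control. Of the 10 tested, 5 rose, 2 fell and 3 were not called. These are 50% higher and 20% lower, beside 24.3% and 25.8% among all tested genes. All 5 calls upward were lost with DESeq2 and with limma-voom. Of the 2 that fell, Col5a3 kept its call with both, and Col24a1 kept its call with limma-voom but not with DESeq2. Col3a1, the collagen III gene of distensible tissues, was at 13.2 and 21.3 CPM in the clones against 9.15 CPM in the control (log2 fold change 0.91 ± 0.23, edgeR adjusted p = 0.00414). Col2a1, the main cartilage collagen gene, was at 18.5 and 26.1 CPM in the clones against 15.7 CPM in the control (log2 fold change 0.50 ± 0.17, edgeR adjusted p = 0.0247). Its call was lost with RLE size factors (adjusted p = 0.0593) and with limma-voom (adjusted p = 0.0971), and it lies on chromosome 15, where the median log2 fold change of the 550 tested genes was -0.28. Both genes were higher in clone 2 than in clone 1.

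Collagen V, which nucleates fibrils and is built of several chains, had chain genes that moved in opposite directions. Col5a1 had 27 and 29 reads in the clones and 12 in the control (log2 fold change 1.32 ± 0.44, edgeR adjusted p = 0.0193). Col5a2 had 28 and 44 reads in the clones and 14 in the control (log2 fold change 1.46 ± 0.44, edgeR adjusted p = 0.0113). Col5a3, the chain with the most restricted expression, went the other way, at 16.8 and 16.4 CPM in the clones against 30.9 CPM in the control (log2 fold change -0.89 ± 0.12, edgeR adjusted p = 1.22e-05). Per kilobase, Col5a1 held 9.39% and 9.79% of the collagen V level in the clones against 2.46% in the control, Col5a2 held 8.62% and 13.2% against 2.54%, and Col5a3 held the rest. The calls of Col3a1, Col5a1 and Col5a2 were lost with limma-voom, at adjusted p of 0.0520, 0.0584 and 0.0642.

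Collagen I, the most abundant fibrillar collagen of connective tissue, was not called. Col1a1 was at 14.0 and 23.3 CPM in the clones and 13.4 CPM in the control (edgeR adjusted p = 0.0869). Col1a2 was at 9.35 and 14.4 CPM in the clones and 7.99 CPM in the control (edgeR adjusted p = 0.0543). Both were called higher by edgeR when genes had to reach a mean of 1 CPM, at adjusted p of 0.00924 and 0.0119. Neither was called with DESeq2 (adjusted p = 0.718 and 0.448), limma-voom (0.257 and 0.153) or RLE size factors (0.163 and 0.0989). Clone 1 was close to the control and clone 2 stood apart from both. Col1a1 over Col1a2 per kilobase was 2.83 and 3.06 in the clones and 3.18 in the control, with counting intervals that overlap.

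Among the other fibrillar genes, Col24a1, a minor fibrillar chain gene, fell to 3.12 and 2.43 CPM in the clones, against 8.16 CPM in the control (log2 fold change -1.55 ± 0.26, edgeR adjusted p = 0.000113). Col11a2 was at 16.7 and 13.5 CPM in the clones and 13.1 CPM in the control and was not called (edgeR adjusted p = 0.344). Col11a1, its partner in cartilage fibrils, had 13 and 3 reads in the clones and 0 in the control. Its mean in the clones was 2.86 times a floor of 3 reads in the control library, without counting error, and clone 2 itself was at that floor. Col11a1 passed the low-count filter only through clone 1, so it was bound to differ and its edgeR call is no support. Col27a1 had at most 3 reads in any library.

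**Figure D4:**
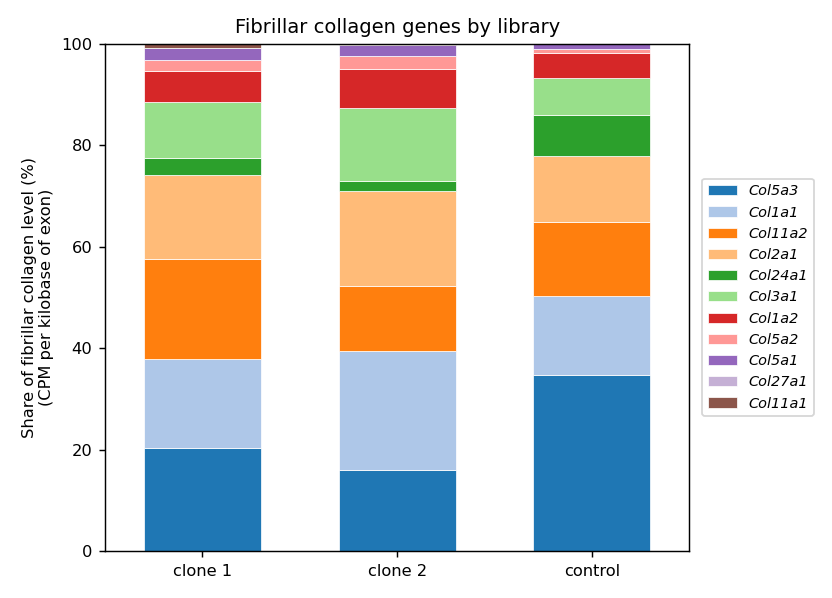
Share of each fibrillar collagen gene in the summed level per kilobase of the 11 genes, in percent, for clone 1, clone 2 and the control. Col5a3 takes 20.3% and 15.9% in the clones against 34.7% in the control, and Col3a1 takes 11.0% and 14.3% against 7.13%.

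Collagen VI, which forms beaded filaments near cell surfaces, was dominated by an unusual chain. Col6a5 was at 275 and 262 CPM in the clones against 195 CPM in the control and rose (log2 fold change 0.46 ± 0.06, edgeR adjusted p = 5.48e-06). The chains found in most collagen VI were scarce. Col6a1 fell to 3.21 and 4.85 CPM in the clones, against 7.41 CPM in the control (log2 fold change -0.88 ± 0.26, edgeR adjusted p = 0.0107). Col6a2 was at 3.65 and 5.75 CPM in the clones and 4.24 CPM in the control and was not called (edgeR adjusted p = 0.714). Per kilobase, Col6a5 stood at 39.9 and 25.1 times the level of Col6a1 in the clones and at 12.3 times in the control, where the 95% counting intervals are 28.8 to 57.1, 19.2 to 33.5 and 9.92 to 15.3. Against Col6a2 it stood at 66.6 and 40.3 times in the clones (49.0 to 93.0 and 31.5 to 52.5) and at 40.7 times in the control (30.8 to 54.8), so these intervals overlap.

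Col6a5 was high alone among its neighbours. Col6a6 and Col6a4 lie 27.9 kb and 28.8 kb away on the same strand of chromosome 9. Col6a6 had 28 and 18 reads in the clones and 18 in the control, and Col6a4 had 0 reads in each clone and 1 in the control. Col6a3, the usual partner of Col6a1 and Col6a2, had 21 and 46 reads in the clones and 22 in the control (edgeR adjusted p = 0.205). Among the long chains Col6a3, Col6a4, Col6a5 and Col6a6, Col6a5 made up 98.6% and 98.2% of the level per kilobase in the clones and 98.5% in the control. No other annotated exon overlaps those of Col6a5.

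FACIT collagens, which sit on fibril surfaces, moved in both directions. Of 5 tested genes, Col20a1 and Col9a3 rose, Col16a1 and Col9a2 fell, and Col12a1 was not called. Col16a1 was at 17.6 and 20.7 CPM in the clones against 28.0 CPM in the control (log2 fold change -0.55 ± 0.13, edgeR adjusted p = 0.00175). Col20a1 was at 10.6 and 9.62 CPM in the clones against 6.99 CPM in the control (edgeR adjusted p = 0.0371; 0.0511 with limma-voom). The collagen IX chains, partners in cartilage, split: Col9a2 had 55 and 71 reads in the clones against 120 in the control (edgeR adjusted p = 0.00484). Col9a3 had 35 and 37 reads in the clones against 18 in the control (edgeR adjusted p = 0.0229; 0.0570 with limma-voom). Col12a1 had 20 and 40 reads in the clones and 18 in the control (edgeR adjusted p = 0.143).

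The remaining tested collagens were low. Col17a1, a transmembrane collagen of hemidesmosomes, fell to 3.47 and 3.87 CPM in the clones, against 7.07 CPM in the control (log2 fold change -0.95 ± 0.25, edgeR adjusted p = 0.00461). Col23a1, also transmembrane, was at 1.51 and 1.98 CPM in the clones and 1.58 CPM in the control. Col7a1, the anchoring fibril collagen gene, was at 10.2 and 11.1 CPM in the clones and 9.07 CPM in the control, and Col26a1 was at 4.81 and 4.31 CPM in the clones and 4.99 CPM in the control. None of these last 3 was called by edgeR (adjusted p = 0.805, 0.317 and 0.704), and each had an unadjusted p above 0.05.

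Both tested genes of elastic fibres fell. Fbn1, which encodes fibrillin 1, the core of microfibrils, was at 9.98 and 9.62 CPM in the clones against 21.7 CPM in the control (log2 fold change -1.15 ± 0.15, edgeR adjusted p = 8.66e-06). Eln, the elastin gene, had 10 and 17 reads in the clones against 41 in the control (log2 fold change -1.49 ± 0.39, edgeR adjusted p = 0.00444). Fbn2, the fibrillin 2 gene, had 0 and 3 reads in the clones and 1 in the control and was not tested. Antisense Gm9913 covers 20.1% of the Fbn1 exons, and since no source states whether reads were counted by strand, reads of that locus cannot be assigned to a strand.

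Of the 20 genes that were not tested, 16 had at most 3 reads in every library and the highest count of any of them was 8. These include 5 with no read in either clone and 6 with no read in the control. Among FACIT collagens, Col14a1 had 3 and 4 reads in the clones and 8 in the control, Col9a1 had 3 and 3 in the clones and 0 in the control, and Col22a1 had 0 and 0 in the clones and 3 in the control. The network-forming Col8a1 had 1 and 4 reads in the clones and 3 in the control, Col8a2 had 5 and 3 in the clones and 4 in the control, and Col10a1, the growth plate collagen gene, had 0 and 0 in the clones and 2 in the control. The transmembrane Col13a1 had 2 and 1 reads in the clones and 0 in the control, and Col25a1, also transmembrane, had 1 and 0 in the clones and 0 in the control. Col28a1 had 0 and 0 reads in the clones and 1 in the control. A level under 3 reads in a library was not detectable at this depth.

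Clone 2 stood above clone 1 in several interstitial matrix genes. With 1 library each there is no test between them, and ratios of clone 2 over clone 1 are given with 95% exact binomial intervals that cover counting error only. The interval excluded 1 for 15 of the 43 tested genes. Clone 2 was higher in 11 of the 43, beside 6.01% of all tested genes, and clone 1 was higher in 4 of the 43, Lamb2, Fn1, Col15a1 and Col11a1, beside 5.50%. Intervals narrow with read number, so these shares also depend on the level of the genes. The ratio was 1.66 for Col1a1 (1.36 to 2.04), 1.54 for Col1a2 (1.20 to 1.99) and 1.62 for Col3a1 (1.31 to 1.998). It was 1.41 for Col2a1 (1.17 to 1.69), 1.58 for Col6a2 (1.05 to 2.39) and 2.21 for Col6a3 (1.29 to 3.90).

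Col12a1 had a ratio of 2.02 (1.15 to 3.64) and Tnc one of 2.19 (1.31 to 3.77). These 8 genes, grouped after their values were seen, summed to 64.4 and 103 CPM in the clones, against 56.3 CPM in the control. Ratios were nearer to 1 for abundant genes. The ratio was 1.14 for Sparc (1.11 to 1.16), 1.11 for Col18a1 (1.07 to 1.15), 0.949 for Lamb2 (0.903 to 0.999) and 0.927 for Fn1 (0.887 to 0.969). Of the fibroblast markers, Thy1 was at 4.81 CPM in clone 1, 8.81 CPM in clone 2 and 13.5 CPM in the control, and Pdgfrb was at 12.5, 14.2 and 5.66 CPM. Their part in the difference between the clones was not tested.

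**Figure D5:**
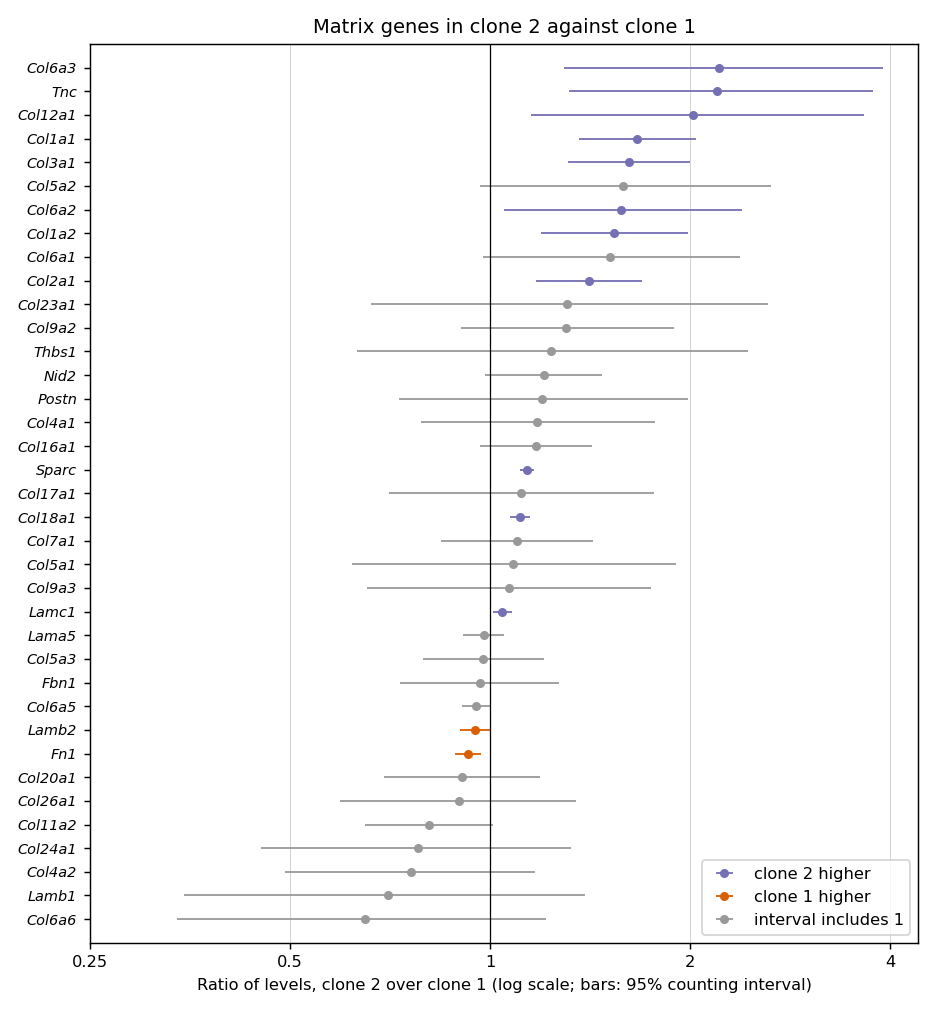
Ratio of clone 2 over clone 1 on a log axis with 95% counting intervals, for 37 tested genes with at least 30 reads over both clones. Col6a3, Tnc, Col12a1, Col1a1 and Col3a1 lie furthest to the side of clone 2. Col6a6, Lamb1, Col4a2 and Col24a1 lie furthest to the side of clone 1, with intervals that include 1. Lamb2 and Fn1 lie slightly to the side of clone 1, with intervals that exclude 1.

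Genes that process collagen moved in both directions. Of 25 tested genes for collagen synthesis and cross-linking, 10 rose and 8 fell, and their median log2 fold change was 0.05. These are 40% and 32%, beside 24.3% higher and 25.8% lower among all tested genes. Serpinh1, the collagen chaperone HSP47 gene, was at 267 and 279 CPM in the clones against 162 CPM in the control (log2 fold change 0.75, edgeR adjusted p = 2.62e-08), on chromosome 7, where the median of 1069 genes was 0.26. Plod2, a collagen lysyl hydroxylase gene, was at 270.3 and 278 CPM in the clones against 159 CPM in the control, and Bmp1, the procollagen C-proteinase gene, was at 608 and 597 CPM against 370.1 CPM (log2 fold changes 0.79 and 0.70, edgeR adjusted p = 1.29e-08 and 1.44e-08). Adamts3, a procollagen N-proteinase gene, had 0 reads in clone 1, 1 in clone 2 and 61 in the control. Adamts3 and another of the 8 that fell passed the low-count filter only through the control, so both were bound to differ. The level of Adamts3 over both clones was 0.00881 of that in the control (95% counting interval 0.00022 to 0.0510).

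Matrix proteases and their inhibitors had 6 genes higher and 8 lower of 26 tested, with a median log2 fold change of 0.16. The shares of 23.1% and 30.8% are near the 24.3% and 25.8% of all tested genes. The 4 with the lowest p all fell. Mmp24 and Mmp16 are membrane-anchored metalloproteinase genes of the nervous system. Each had 1 read in clone 1 and 3 in clone 2, against 252 (Mmp24) and 34 (Mmp16) reads in the control. Both passed the low-count filter only through the control, so they were bound to differ and their low p is no support. Other called genes of the list, among the 6 higher and the 8 lower, also passed it only through a library in which they were high. Adamts4, an aggrecanase gene, was at 27.3 and 27.9 CPM in the clones against 60.0 CPM in the control (edgeR adjusted p = 4.15e-08). Mmp17, another membrane-anchored metalloproteinase gene, was at 16.2 and 15.0 CPM in the clones against 28.4 CPM in the control (edgeR adjusted p = 2.82e-05).

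Other matrix glycoproteins, 26 tested, had 9 higher and 8 lower, with a median log2 fold change of 0.06. These are 34.6% and 30.8%, beside 24.3% and 25.8% of all tested genes. The 8 lower include genes with at most 1 read in each clone. These passed the low-count filter only through the control, so they were bound to differ. Agrn, the gene of agrin, which binds laminin and organises the neuromuscular synapse, was at 327 and 328 CPM in the clones against 198 CPM in the control (log2 fold change 0.72, edgeR adjusted p = 2.1e-08). The latent TGF-beta binding protein genes Ltbp3 and Ltbp4 had log2 fold changes of 0.75 and 0.87 (edgeR adjusted p = 1.09e-07 and 1.58e-08), Ltbp4 being on chromosome 7. Spock2, a testican proteoglycan gene, was at 43.3 and 49.2 CPM in the clones against 84.4 CPM in the control (edgeR adjusted p = 3.38e-07).

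Matrix receptors had 5 genes higher and 7 lower of 21 tested, with a median log2 fold change of -0.16. The shares of 23.8% and 33.3% stand beside 24.3% and 25.8% of all tested genes. The 7 lower include a gene with 3 and 7 reads in the clones and 15 in the control. That gene passed the low-count filter only through the control, so it was bound to differ. Itga5, the alpha subunit of the fibronectin receptor, was at 201 and 198 CPM in the clones against 130.4 CPM in the control (log2 fold change 0.61, edgeR adjusted p = 3.32e-07). Itga1, a collagen and laminin receptor subunit, was at 1.96 and 2.70 CPM in the clones against 24.5 CPM in the control (log2 fold change -3.39, edgeR adjusted p = 1.41e-09). Itgb3, a subunit of receptors for fibronectin and vitronectin, was at 13.5 and 12.2 CPM in the clones against 37.7 CPM in the control (log2 fold change -1.55, edgeR adjusted p = 3.5e-08). Mcam, which binds laminin, was at 36.2 and 37.3 CPM in the clones against 70.7 CPM in the control (edgeR adjusted p = 1.02e-07).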

How the data were processed

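Raw counts of 3 mRNA libraries were used as deposited. Per the file headers, the authors made the counts with STAR's gene counting, using Gencode M16 (Ensembl 91) on GRCm38/mm10. The submitters' processing notes name STAR 2.5.3, bcl2fastq and DESeq2. The labels' protocols name a stranded mRNA kit, but no source used here gives the strand setting of the counts. Deposited RPM values, scaled by the authors to the mapped reads of each library, were not analysed further. The authors' deposited table gives, per the file headers, a fold ratio, a log2 fold change, a p-value and an adjusted p-value from DESeq2.

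filterByExpr on the groups left 13705 of 22976 genes. Clones and control were compared with edgeR 4.0.16 in R 4.3.3: TMM factors, the quasi-likelihood F test with the legacy option off, two-sided, and Benjamini-Hochberg adjustment over all tested genes at 0.05. The 3 libraries leave 1 residual degree of freedom, and the spread is moderated across genes. Standard errors were approximated as the log2 fold change over the square root of F. The test was also run on counts simulated with the spread fitted to these same libraries. Such a run cannot check the spread between untreated cultures, so it is no support for the p-values here. Positions, exon lengths (union of exons) and overlaps came from Gencode M21 on GRCm38, and promoter sequences from RefSeq, GRCm38.p6. Totals of 11307034 to 11700755 counts set the precision, and intervals are 95%.

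The genes and lists were chosen with earlier results of these data known. Some genes are counted in the totals but are not reported here by name or drawn. Otherwise every tested gene of the group is named, untested ones are given by their reads, and up to 4 tested genes of lowest p are named from each other list. Alternatives were DESeq2 1.42.0, limma-voom (limma 3.58.1), RLE size factors, no filter, a mean of 1 CPM, legacy and robust fits, a prior count of 5, longest transcripts and leaving out each clone. No filter with the legacy fit was added after seeing the data.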

Additional observations from a re-analysis of the deposited data

How the results depend on the processing

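Over all genes, edgeR called 3332 higher and 3533 lower, DESeq2 1402 and 1369. Of the matrix group, DESeq2 called 8 higher and 3 lower, and limma-voom 9 higher and 9 lower, against 16 and 10 by edgeR. The calls of limma-voom over all genes were 3069 higher and 3295 lower. On the other lists DESeq2 called 10 genes for collagen synthesis and 5 for proteases, against 18 and 14. Without the low-count filter edgeR called 0 genes higher and 4 lower overall (7086 at an unadjusted p under 0.05), and 0 in the matrix group (23 unadjusted) and in each other list. With the legacy fit as well, it called 0 overall (6560 unadjusted) and 0 in the group (22 unadjusted). The cause was not tested. RLE size factors, legacy and robust fits and the 1 CPM filter kept all these counts within 1.5 times. No called gene that the text names from these lists changed direction under any alternative. Of the genes not called, Tnc, Col6a2, Nid2 and Col23a1 turned to log2 fold changes of -0.24, -0.22, -0.07 and -0.06 without clone 2. The 11 genes called by DESeq2 were also called in each filtered setting. Without either clone, all 26 called genes kept their sign, and Col15a1 and Col11a1 moved by over 1.5 times. With longest transcripts in place of exon unions, the median level of the tested genes in the clones was 1.00 CPM per kilobase, against 0.763. No paired analysis was possible because there is 1 control library, so the groups share fewer than 2 replicate numbers. With 1 control library, the spread of untreated cells is unknown, and genes under 5 CPM rest on few reads.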
